A study of Ichthyophis bannanicus with 29 samples.

Results

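*Ichthyophis bannanicus* is a caecilian, an amphibian without limbs that lives in soil. In its libraries, 158 genes were abundant in all kidney samples and had low medians in the other sampled tissues. They were chosen by their measured values: 40 TPM (transcripts per 1000000, a share of each library) or more in each of the 3 kidney libraries, and a median in every other tissue under 5% of the kidney mean. They made up 0.297% of the 53113 assembled genes in the table and 6.53% of the 2421 genes that reached 40 TPM in every kidney library. Messenger RNA was sequenced from kidney, blood, heart, liver, lung, skin, spleen, stomach and testis with 3 libraries each, and from ovary with 2 (replicates 1 and 3), 29 libraries in all. The labels give the tissue and a replicate number, with no sex, age or treatment. They do not say whether the replicates are separate animals, so the spread between libraries may be technical. Since TPM keeps no sequencing depth, no counting interval is given.

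The kidney filters blood and recovers ions, sugars, amino acids and small proteins from the filtrate along its tubules. In vertebrates, tubule cells are known for membrane carriers and channels that few other organs use, and each stretch of the tubule has its own set. Amphibian kidneys also balance the water that enters through the skin. None of the 158 genes could be assigned to such a role. The deposited table pairs its assembly IDs with no gene names, and none of the 22 symbols of kidney genes or the 12 symbols of other cell types listed as markers matched a row (0 of each). The tissue label was therefore not checked against markers, and the genes are named by ID alone, at most 2 for a description and direction. A row is an assembled sequence, which may be part of a gene or a merger of close copies.

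A pair of libraries stood apart in ways that touch these genes. Testis replicate 1 held the kidney-restricted genes at a median of 7.27% of their kidney mean. Kidney replicate 1 held the 144 genes that the same rule picks for ovary at a median of 39.8% of their ovary mean. Counts of calls, and the kidney spread, are given with and without the library they rest on.

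In kidney the 158 genes spanned almost 2 orders of magnitude, and a few of them took much of the total. Their kidney means ran from 47.3 to 3707 TPM, with a median of 85.2 TPM and quartiles of 66.4 and 148 TPM. There were 91 genes under 100 TPM, 27 at 200 TPM or more, 10 at 500 TPM or more and 4 at 1000 TPM or more. Summed, they held 2.48%, 3.48% and 2.86% of all TPM in kidney replicates 1, 2 and 3, or 2.94% ± 0.502 (SD, n = 3). The top 10 genes held 41.9% of this sum, 16 genes were enough for 50% of it and 108 for 90%.

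**Figure D1:**
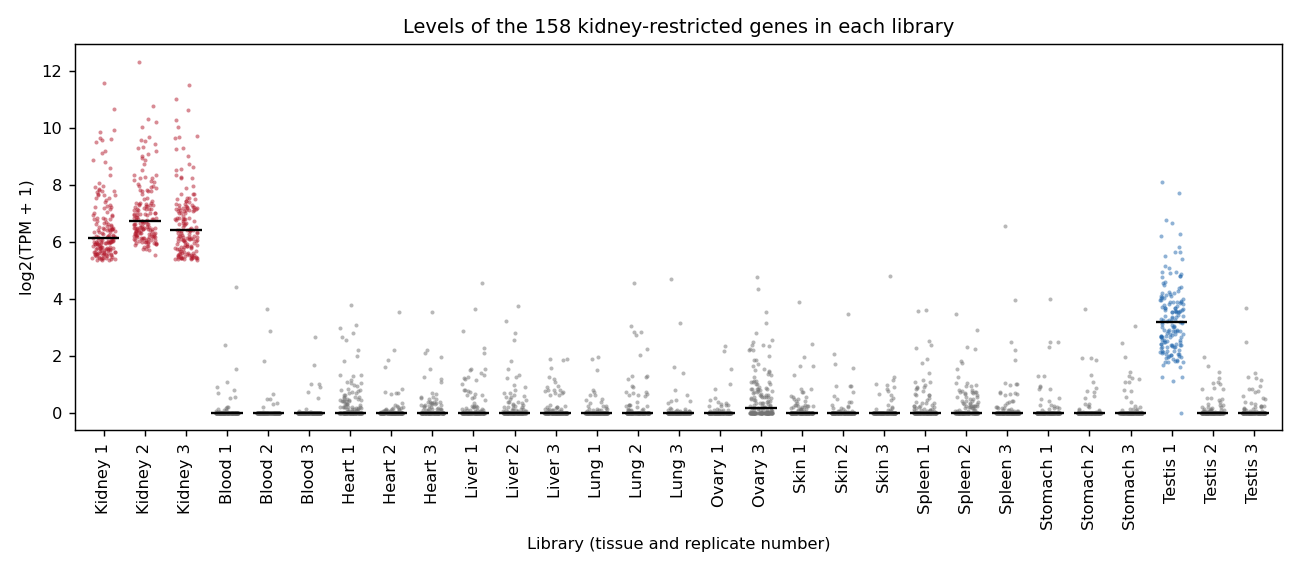
Levels of the 158 kidney-restricted genes in all 29 libraries, as log2(TPM + 1) on the vertical axis. Each point is a gene and each bar the median of a library. The 3 kidney libraries (red) have medians of 69.6, 104.9 and 84.0 TPM, testis replicate 1 (blue) has 8.10 TPM, ovary replicate 3 has 0.113 TPM, and the medians of the other 24 libraries lie at 0.

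TRINITY_DN49458_c0_g1 was the most abundant of them and the eighth most abundant of all genes in kidney by mean. It stood at 3049, 5160 and 2911 TPM in kidney replicates 1, 2 and 3, which was 12.6% of the summed kidney means of the 158. Outside kidney it reached 209 TPM in testis replicate 1 and 4.88 TPM in ovary replicate 3, and 21 of the 26 libraries listed it at 0. TRINITY_DN8232_c0_g1 came next, at 1607, 1757 and 1590 TPM in kidney. It was also the only one of the 158 with a value above 0 in every library: outside kidney and testis replicate 1 it ranged from 0.532 to 92.9 TPM, with a median of 10.5 TPM and its highest value in spleen replicate 3. For both genes every kidney value exceeded every other value.

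The most abundant genes were much the same in each kidney library. Of the 10 most abundant genes of each kidney library, 9 were common to all 3, and of the 20 most abundant, 17 were. The top 10 by mean held 41.4%, 40.4% and 44.0% of the summed TPM of the 158 in replicates 1, 2 and 3. Over all 158, Spearman's rho was 0.83 between replicates 1 and 2, 0.73 between 1 and 3 and 0.84 between 2 and 3. Over the other 2263 genes at 40 TPM in every kidney library it was 0.81, 0.78 and 0.94 for the same pairs. These are descriptions across genes, which are not independent. Among the 100 most abundant genes in kidney were 7 of the 158, and 60 were among the first 1000. Both counts lie near the 6.53% that the 158 made up of genes at 40 TPM in every kidney library.

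**Figure D2:**
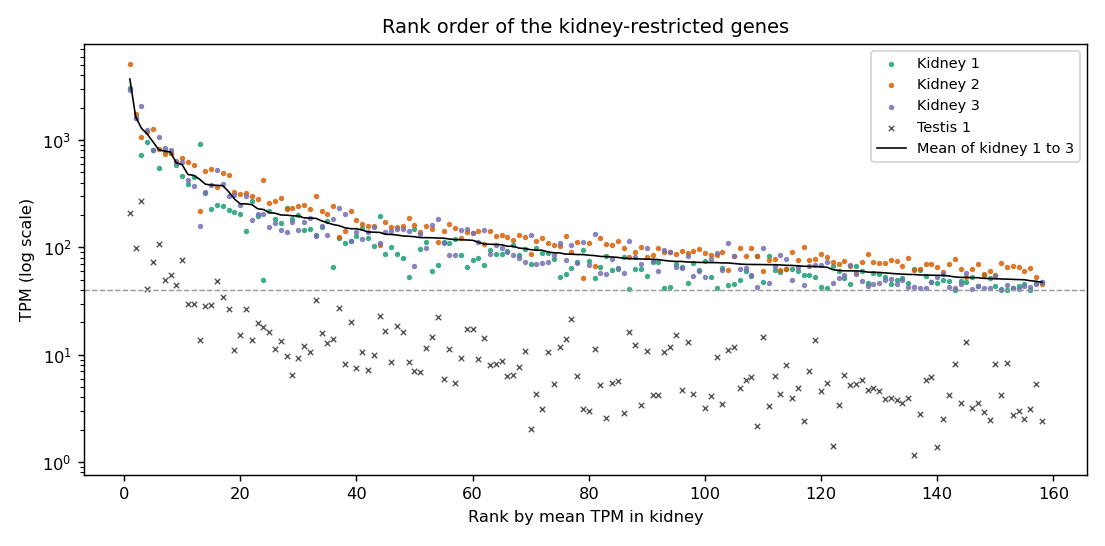
TPM (log scale) of each kidney-restricted gene against its rank by kidney mean. Coloured points are the 3 kidney libraries, the line is their mean, crosses are testis replicate 1 where its value is above 0, and the dashed line marks 40 TPM. The mean is 3707 TPM at the first rank and 47.3 TPM at the last, and the crosses run below the kidney points along the whole order.

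The thresholds that chose the genes were passed narrowly by a few. TRINITY_DN17673_c0_g1 was the nearest inside the level, with 40.9, 71.1 and 40.1 TPM in kidney replicates 1 to 3, and TRINITY_DN20812_c1_g1 the nearest outside it, with 39.9, 69.2 and 55.7 TPM. For the limit on other tissues, TRINITY_DN141563_c0_g1 was the nearest inside, with a stomach median at 4.24% of its kidney mean. The nearest outside was TRINITY_DN131719_c0_g1, with a testis median at 5.06%. The limit on other tissues removed 2263 of the 2421 genes at the level. Near the thresholds, more genes lay within a factor of 2 of the level than of the limit. Among genes under the 5% limit, 218 had a lowest kidney library between 20 and 40 TPM, 100 between 40 and 80 TPM, and 58 at 80 TPM or more. Among genes at 40 TPM in every kidney library, 133 had all other medians under 1% of the kidney mean, 25 reached between 1% and 5%, and 20 between 5% and 10%. At the other end, 1841 (76.0%) had at least 1 other tissue whose median was as high as the kidney mean or higher.

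Between the kidney libraries, the 158 genes shifted together, with replicate 2 high. Kidney replicate 2 was the highest of the 3 for 122 genes (77.2%), replicate 3 for 29 and replicate 1 for 7. Replicate 1 was the lowest for 85 genes and replicate 3 for 69. The medians were 85.1%, 121% and 89.2% of a gene's kidney mean in replicates 1, 2 and 3. The other 2263 genes at 40 TPM in every kidney library had medians of 95.7%, 98.5% and 103%, and replicate 2 was the highest for 23.8% of them. When libraries were rescaled by the median of ratios, replicate 2 was the highest for 128 of the 158 (81.0%), against 39.8% of the other genes. Rescaling lowers replicate 1 in all genes alike: it was then the lowest for 125 (79.1%) of the 158 and for 74.3% of the others. Without replicate 1, as deposited, replicate 2 exceeded replicate 3 for 127 (80.4%) of the 158 and for 38.3% of the others. With kidney replicate 1 holding ovary genes at 39.8% of their ovary mean, the part of that in its lower levels here was not tested.

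**Figure D3:**
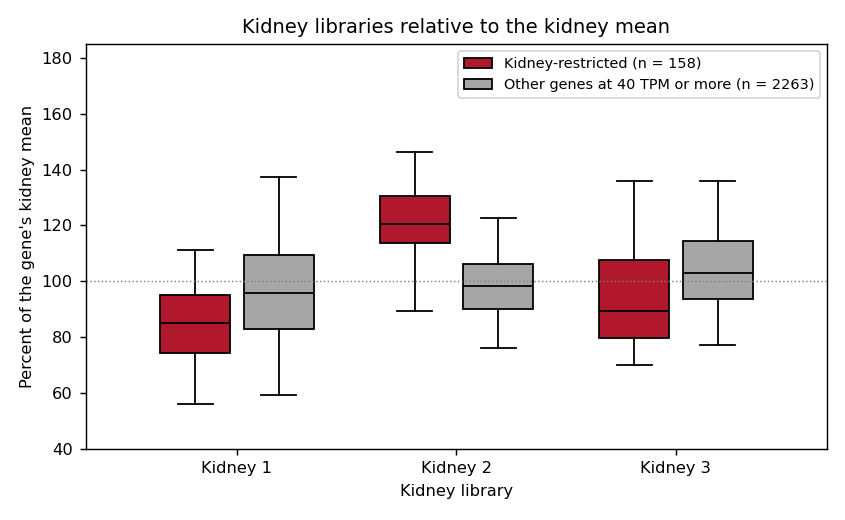
Percent of a gene's kidney mean in kidney replicates 1, 2 and 3, for the 158 kidney-restricted genes (red) and the other 2263 genes at 40 TPM or more in all 3 (grey). Boxes span the quartiles with the median, and whiskers the 5th to 95th percentiles. In replicate 2 the lower quartile of the restricted genes, 114%, lies above the upper quartile of the other genes, 106%.

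The coefficient of variation (SD over mean) of the 158 across the kidney libraries had a median of 26.6%, with quartiles of 20.2% and 33.9%. In the other 2263 genes the median was 15.6%. Without kidney replicate 1 the medians were 24.5% in the 158 and 7.61% in the others. Of the 158, 10 varied by less than 10%, and 4 of these were among the 10 most abundant. TRINITY_DN46984_c0_g1 varied least, with 48.0, 45.9 and 47.9 TPM in replicates 1 to 3, followed by TRINITY_DN18331_c0_g1 with 756, 759 and 802 TPM. Both departed from the common shift toward replicate 2. At the other extreme, TRINITY_DN8354_c1_g1 stood at 920, 217 and 158 TPM and TRINITY_DN93724_c0_g1 at 49.4, 424 and 203 TPM. TRINITY_DN8354_c1_g1 was thus highest in kidney replicate 1, where most of the others were low.

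As a reading of kidney libraries that the choice did not use, the rule was applied with each kidney library left out in turn, and that library was then read. With replicate 2 left out, 160 genes were chosen, of which 159 (99.4%) had 40 TPM or more in it, at a median of 135% of the mean of the other kidney libraries. With replicate 3 left out, 183 were chosen and 158 (86.3%) reached 40 TPM there, at a median of 82.2%. With replicate 1 left out, 221 were chosen and 161 (72.9%) reached 40 TPM there, at a median of 72.3%, and the lowest was listed at 0. The same share among all genes at 40 TPM in the kidney libraries kept was not counted. These percentages therefore do not set the chosen genes apart from other genes abundant in kidney. In the library left out, 160 of 160, 183 of 183 and 218 of 221 genes lay above all 26 libraries of other tissues. The choice did use those 26 libraries and held their tissue medians low, which made such high counts likely. Of the kidney libraries, replicate 1 lowered the number of genes chosen the most, since 221 were chosen without it.

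In the limma test of kidney against the mean of the other 9 tissues, all 158 were called higher, where 14.7% of the 50365 tested genes were. The rule used this contrast, so the count only describes the choice. The median log2 difference of the 158 was 6.21, against 0.32 over all tested genes, on the log2(TPM + 1) scale. This scale understates differences from low levels: with 0.1 added in place of 1 the medians were 9.14 and 0.59. For each of the 158 the lowest kidney library exceeded all 26 others, with and without rescaling.

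Outside kidney and testis replicate 1, the 158 genes were mostly listed at 0. Over the 25 remaining libraries 78.6% of their 3950 values were 0 and 4.99% were 1 TPM or more. Of all genes, these libraries listed from 26.7% (testis replicate 2) to 44.3% (spleen replicate 1) at 0. The choice kept the tissue medians of the 158 low, so a high share at 0 was likely. Summed over the 158, these libraries held from 11.6 TPM in blood replicate 3 to 157 TPM in ovary replicate 3, with a median of 33.9 TPM. The kidney libraries held 24835 to 34782 TPM. There were 24 genes at 0 in all 25, 102 under 1 TPM in all 25 and 13 that reached 5% of their kidney mean in any of them. Low levels in a bulk tissue do not tell fewer cells of a type from less RNA per cell.

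The small remainder was not spread evenly. Ovary replicate 3 had 31 of the 158 at 1 TPM or more and was the highest of the 25 libraries for 43 genes, whereas ovary replicate 1 had 4 at 1 TPM or more. Heart replicate 1 was the highest for 20 genes and liver replicate 1 for 12. By tissue medians, ovary was the highest other tissue for 62 genes, testis for 16, spleen for 11 and liver for 9, while 46 genes had a median of 0 in all 9. The ovary median is the mean of its 2 libraries, so that replicate 3 alone raises it, whereas in a tissue of 3 a single library cannot. Spleen replicate 3 summed to 128 TPM, of which TRINITY_DN8232_c0_g1 made up 92.9 TPM.

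Testis replicate 1 held nearly all of the 158 genes. It had 157 at 1 TPM or more and 11 at 40 TPM or more, while testis replicates 2 and 3 listed 125 and 126 of them at 0 and had 6 each at 1 TPM or more. Summed, the 158 came to 2461, 17.4 and 29.3 TPM in testis replicates 1, 2 and 3, or 8.37%, 0.0592% and 0.0995% of the mean kidney sum. Testis replicate 1 exceeded both other testis libraries for 157 genes and was the highest non-kidney library for 154. For the exceptions, the highest was lung replicate 2 for 2 genes and liver replicate 1 for 1. TRINITY_DN76110_c0_g1 was the last, at 61.5, 96.1 and 59.8 TPM in kidney and listed at 0 in all 26 other libraries.

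The genes were present in testis replicate 1 roughly in proportion to their kidney level. The percent of the kidney mean had quartiles of 5.64% and 11.0% around the median of 7.27%. It lay between 5% and 10% for 86 genes, between 10% and 20% for 38, at 20% or more for 7 and between 2% and 5% for 26. The median was 6.998% for the 73 genes with a kidney mean under 80 TPM, 7.40% for the 58 between 80 and 200 TPM and 7.26% for the 27 at 200 TPM or more. Spearman's rho between this percent and the kidney mean was 0.01 across the 158 genes, which share these libraries and are not independent. The 10 most abundant genes in kidney and in testis replicate 1 had 9 in common, and the top 10 by kidney mean held 41.8% of the sum in testis replicate 1. After rescaling, the median percent was 5.97%.

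**Figure D4:**
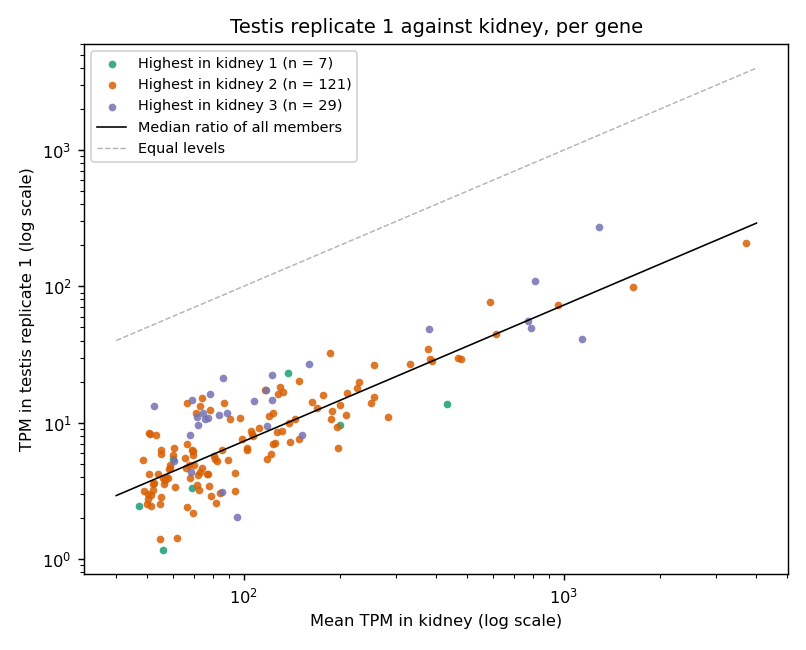
TPM in testis replicate 1 against mean TPM in kidney (both log scales) for the 157 kidney-restricted genes above 0 in testis replicate 1, coloured by the kidney library in which the gene was highest. The solid line is the median ratio of 7.27% and the dashed line equal levels. All points lie below the dashed line, and genes highest in kidney replicate 3 lie mostly above the solid one.

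Which kidney library a gene favoured went with its level in testis replicate 1. The 29 genes highest in kidney replicate 3 stood at a median of 13.4% of their kidney mean in testis replicate 1, with quartiles of 7.97% and 15.8%. The 122 highest in kidney replicate 2 stood at 6.95%, with quartiles of 5.64% and 8.89%, and the 7 highest in kidney replicate 1 at 4.83%. Of the 29, 27 were also lowest in kidney replicate 1, so a high replicate 3 and a low replicate 1 cannot be told apart. Spearman's rho of the testis replicate 1 percent with a gene's percent of its kidney mean was -0.52, -0.09 and 0.45 for kidney replicates 1, 2 and 3. All these percents are of the same kidney mean, which ties a gene's 3 kidney percents to each other. The 3 values of rho are therefore not separate readings. Across the 157 genes above 0, Pearson's r of log2 TPM in testis replicate 1 was 0.88 with kidney replicate 3, 0.81 with kidney replicate 2 and 0.73 with kidney replicate 1. These are descriptions over genes of the same 4 libraries, without a test. TRINITY_DN18967_c0_g2 had the highest percent, 25.2%, with 47.7, 52.5 and 57.5 TPM in kidney and 13.2 TPM in testis replicate 1. TRINITY_DN65311_c0_g1 followed at 24.7%. Above 0, the lowest was TRINITY_DN14342_c0_g2 at 2.07%, with 63.5, 61.7 and 42.4 TPM in kidney and 1.16 TPM in testis replicate 1.

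Differences among the 9 tissues other than kidney were tested next. The limit of 5% keeps these levels low by construction, and all 158 already passed the filter of 1 TPM in at least 2 libraries by their kidney values. In limma's F test over the 9 tissue means, 6 of the 158 passed an adjusted p of 0.05 (Benjamini-Hochberg, over all tested genes), where 68.9% of all genes did. Leaving out testis replicate 1, 2 or 3 gave 12, 14 and 11, where 67.0%, 66.3% and 69.2% of all genes passed. Of the 158, 56 had 1 TPM or more in at least 2 libraries outside kidney, and with fit and filter limited to those libraries 6 of the 56 were called, where 70.7% of all genes were. Because the choice of the genes and the filter hold these counts down, they say nothing of how the 158 compare with other genes.

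The smallest p in that test belonged to TRINITY_DN114959_c2_g2, which stood at 51.6, 66.6 and 133 TPM in kidney. It had 11.4, 1.11 and 1.32 TPM in testis replicates 1 to 3 and at most 0.0964 TPM in the other 23 libraries (limma F test, Benjamini-Hochberg adjusted p = 0.00367). All 3 testis libraries thus lay above the 23 others. Without testis replicate 1 its adjusted p in limma was 0.0122. TRINITY_DN7455_c0_g2 was next (adjusted p = 0.00489 in the same limma test), with 86.2, 173 and 139 TPM in kidney. This gene stood at 4.19, 6.25 and 5.29 TPM in blood, and at 16.8, 0.840 and 1.64 TPM in testis. Its blood libraries lay above all libraries of the other tissues outside kidney except testis replicate 1. Leaving out 1 library moved its F from 4.50 to between 3.49, without blood replicate 2, and 11.2, without testis replicate 1, where its limma adjusted p was 2.43e-05 and it came before TRINITY_DN114959_c2_g2. It was 6.82 without testis replicate 2.

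Testis against the mean of the 8 other tissues besides kidney had 49 of the 158 called higher in limma, where 21.6% of all tested genes were. Testis replicate 1 was known to carry these genes when the test was chosen, and the rule kept the testis median low. The count is therefore a description and does not set the 158 apart from other genes. With fit and filter limited to libraries outside kidney it was 14 of 56, where 22.4% of all genes were. Without testis replicate 1 the count was 2 of 158, where 18.9% of all genes were. With rescaling 17 of the 158 were called, where 9.98% of all genes were, and the median log2 difference of all tested genes was -0.05 in place of 0.41. The largest difference belonged to TRINITY_DN49458_c0_g1, with 209, 0.375 and 0 TPM in testis replicates 1, 2 and 3, or 2.46 ± 0.88 in log2 (SE) with a Benjamini-Hochberg adjusted p = 0.0358 in limma. Without testis replicate 1 it was -0.03. TRINITY_DN17097_c0_g1, with 23.2, 0 and 4.58 TPM in testis, kept its call: it differed by 2.14 ± 0.46 in log2 (SE), with an adjusted p = 0.00102 in limma, and by 1.03 without testis replicate 1. It and TRINITY_DN114959_c2_g2 were the 2 genes called without that library. For TRINITY_DN17097_c0_g1 that call rests on testis replicate 3 alone, since replicate 2 was at 0. Another row of its assembly component was highest in testis, at a mean of 14.4 TPM against 3.96 TPM in kidney. Rows of a component can share reads.

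Liver against the mean of the 8 other tissues besides kidney called 1 of the 158 higher, where 6.66% of all tested genes were. The limit on the liver median made low counts likely. With fit and filter outside kidney the count was 1 of 56, where 3340 of 47831 genes were called. The gene called among the 158 was TRINITY_DN8354_c1_g1, with 22.7, 12.3 and 0.725 TPM in liver. It had at most 1.02 TPM in the other libraries outside kidney, apart from testis replicate 1 at 13.6 TPM. On the log2 scale it differed by 2.73 ± 0.62 (SE), at an adjusted p = 0.00288 in limma. Without liver replicate 1 it was 1.96 with an adjusted p of 0.0729 in limma, so no gene remained called. Without testis replicate 1, 3 genes were called, where 6.83% of all genes were, adding TRINITY_DN12445_c1_g1 at 6.28, 1.38 and 2.70 TPM in liver and TRINITY_DN14461_c0_g3 at 11.4, 0.503 and 0.174 TPM. These additions were named after their values were seen.

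Ovary against the same kind of mean called 0 of the 158 higher in limma, where 15.0% of all tested genes were, and 0 were higher at an unadjusted p under 0.05. The limit on the ovary median made low counts likely. With fit and filter outside kidney the count was 0 of 56, where 7496 of 47831 genes were called. Without ovary replicate 1, which leaves replicate 3 alone and assumes that it varies like the other tissues, 7 were called, where 11.5% of all genes were. Without testis replicate 1, 5 were, where 15.1% of all genes were.

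The assembly IDs give the only feature of sequence in the table: rows of 1 component came from reads that the assembler joined, as copies or pieces of related sequence do. The 158 genes fell in 156 of 46150 components. Of the 158, 104 (65.8%) were the only row of their component, where 76.7% of all rows were. In the components of the other 54 lay 70 rows outside the 158, and 51 of these (72.9%) had their highest mean in kidney, where 12.3% of all rows did. Most were low, since 1 of the 70 had 40 TPM in every kidney library. Rows of a component can share reads, and the 158 were chosen as high in kidney. A high share of such rows was therefore likely beforehand. With rows grouped more widely, by the first number of the ID, 51.9% of the 158 stood alone, where 48.9% of all rows did, and 68 of 169 rows grouped with the others (40.2%) were highest in kidney.

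Only 2 components held more than 1 of the 158. In the first, TRINITY_DN832_c0_g1 stood at 65.4, 139 and 147 TPM and TRINITY_DN832_c0_g2 at 42.7, 89.8 and 91.3 TPM in kidney replicates 1, 2 and 3. Both were lowest in replicate 1, and in testis replicate 1 they held 14.7% and 15.8% of their kidney means. The members of the other component stood at 3.30% and 3.13% there. Rows of a component can share reads, so each pair may not be 2 independent genes.

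TRINITY_DN431_c4_g1 lay in the component with the most rows, 7. It stood at 722, 1058 and 2080 TPM in kidney replicates 1, 2 and 3, highest in replicate 3, and at 271 TPM in testis replicate 1. The 6 other rows of the component had kidney means of at most 275 TPM, and none was highest in kidney. TRINITY_DN431_c4_g7 was highest in blood, where its mean was 8298 TPM, and its kidney mean was 3.31% of that. A component could thus join a row restricted to kidney and a row abundant in blood, and how reads were divided between them is not known.

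The same rule was run for each other tissue to set the kidney genes in context, without a test, since levels chose every list. Kidney, with 158 genes, had numbers close to those of skin (175), liver (152) and ovary (144), followed by stomach (74), testis (52), spleen (41), heart (30), lung (24) and blood (0). Ovary had to reach the level in only 2 libraries, against 3 in the other tissues. As a share of the genes at the level, the lists made up 6.53% in kidney, 8.84% in skin, 8.08% in liver and 5.60% in ovary. The kidney genes were lower in level than those 3 lists: the median of their kidney means was 85.2 TPM, against 352 TPM in skin, 328 TPM in liver and 262 TPM in ovary. They took 2.94% ± 0.502 of TPM in kidney (SD, n = 3), against 27.8% ± 3.61 for the skin list in skin and 21.8% ± 4.28 for the liver list in liver (SD, n = 3 each). For the ovary list it was 10.6% ± 2.67 in ovary (SD, n = 2). The heart list was lower in share, with 2.36% ± 0.462 of TPM in heart (SD, n = 3) and a median level of 120.3 TPM. The median coefficient of variation between replicates was 26.6% for kidney, 22.4% for heart, 40.6% for skin, 31.0% for liver and 48.5% for ovary.

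**Figure D5:**
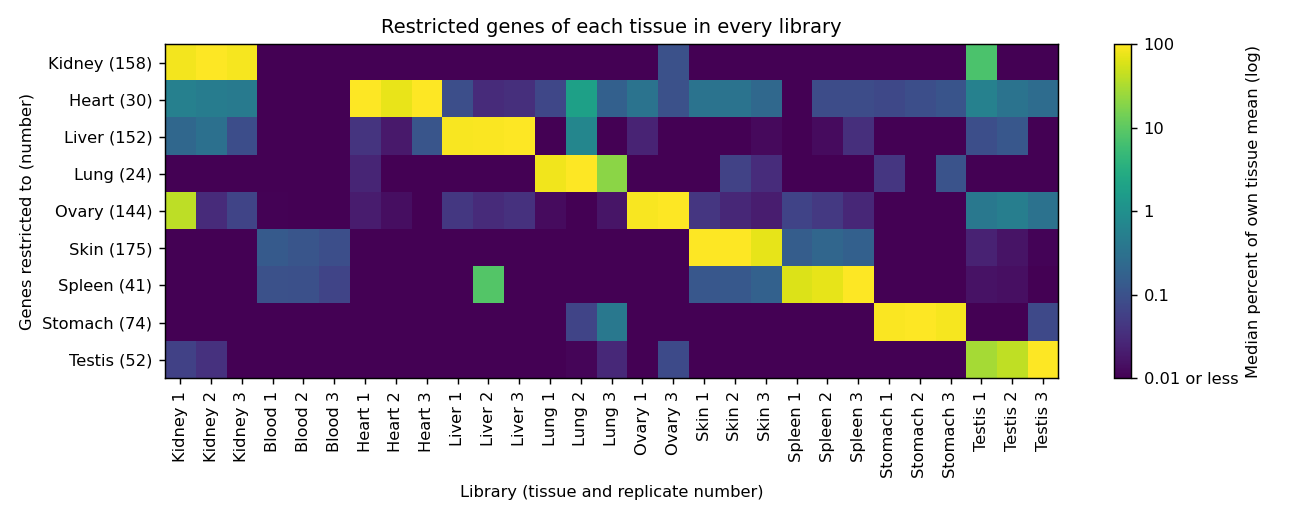
Median percent of the own-tissue mean (log colour scale, values of 0.01 or less in the darkest colour) for the genes that the rule picks in each tissue (rows, with their number) in every library (columns). Blood has no such genes and no row. Kidney genes show a median of 7.27% in testis replicate 1 and 0.098% in ovary replicate 3, and ovary genes 39.8% in kidney replicate 1.

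Outside their own tissue, the lists read highest in few libraries. The ovary list stood at 39.8% in kidney replicate 1, the spleen list at 8.54% in liver replicate 2 and the kidney list at 7.27% in testis replicate 1. The next highest was the heart list at 1.91% in lung replicate 2. In its second highest library, ovary replicate 3, the kidney list stood at 0.098%.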

How the data were processed

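Poly-T selected messenger RNA was made into libraries with the NEBNext Ultra RNA kit, per the labels' protocols. The values are TPM as the authors deposited them, in a table that holds, per the file headers, 53113 rows and 29 columns that each sum to 1000000 and each match 1 sample by its description. The IDs have the form that Trinity gives. How reads were aligned, quantified and filtered is not given in the sources used here, and depth is unknown. A component is the ID without its gene number.

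The 158 genes, their limits and the tests were chosen with earlier results of these data known. They were selected in Python 3.11.15 (pandas 2.3.3, numpy 2.4.6, figures with matplotlib 3.10.9). Levels, shares, spread and correlations are descriptions. Tests ran in limma 3.58.1 (R 4.3.3) on log2 of TPM plus a pseudocount of 1, with tissue means over all 29 libraries and an intensity trend, for 50365 genes that reached 1 TPM in 2 or more libraries. Calls needed a Benjamini-Hochberg adjusted p under 0.05 over all tested genes and, outside the F test, a log2 difference of 1 or more. The fit was checked on simulated data with normal noise and raised testis levels, seeded only in genes of higher mean level. That check did not imitate the many 0 values of the 158 outside kidney. Genes were named by ID: highest kidney mean, lowest and highest variation, extremes in testis replicate 1, nearest to each threshold, leading calls of each test, and the components with most rows or shared by several of the genes. TRINITY_DN431_c4_g7, the other rows of shared components, TRINITY_DN76110_c0_g1 and the genes called without testis replicate 1 were added after their values were seen. Alternatives were other limits, a replicate block, a smaller pseudocount (0.1), rescaling by the median of ratios, tests without a filter, leaving out each library, and fits without kidney libraries. Reading the kidney library left out of the choice, a filter without kidney libraries, and the kidney spread without replicate 1 were added after seeing the data.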

Additional observations from a re-analysis of the deposited data

How the results depend on the processing

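The number of kidney-restricted genes depended on its limits: 376 with 20 TPM, 58 with 80 TPM, 26 when each other tissue's highest library replaced its median and 82 after rescaling, which divides the kidney libraries by factors of 1.61, 1.27 and 1.32 and so asks for more TPM there. Single libraries left out gave 113 to 221. With limits of 1% and 10% and with tissue means it was 133, 178 and 135. The kidney share of TPM was 2.41% without the 2 most abundant genes and 2.67% to 3.17% with 1 kidney library left out. The share in testis was 0.0836% ± 0.141 (SD, n = 3) and 0.00233% to 0.125% with 1 library left out, the lowest without replicate 1. The median in testis replicate 1 was 7.27% of the kidney mean and 5.97% after rescaling. Against kidney replicates 1, 2 and 3 singly it was 8.52%, 5.72% and 8.07%.

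All 158 were called in kidney in every setting that kept the kidney libraries. The F test among other tissues called 6, where 68.9% of all tested genes passed. The count was 15 with a pseudocount of 0.1 (33745 of all 50365 genes) and 16 without testis replicate 1 and kidney replicate 1 (33238 of 49920). With 1 library left out it was 3 to 14. Without liver replicate 1 or 2 the count was 3 (33873 of 50291 and 33765 of 50286 genes). Without testis replicate 1, 2 or 3 it was 12, 14 and 11, where 33580 of 50134, 33167 of 50002 and 34561 of 49932 genes passed. In testis 49 were called, where 21.6% of all tested genes were. The count was 17 after rescaling (5026 of all 50365 genes) and 14 of 56 with fit and filter without kidney (10736 of 47831). Without testis replicate 1 and kidney replicate 1 the count was 2 (9557 of 49920). With 1 library left out it was 2 to 120. Without testis replicate 1, 2 or 3, it was 2, 114 and 120, where 9475 of 50134, 8465 of 50002 and 10863 of 49932 genes were called. Leaving out replicate 2 or 3 gives replicate 1, which carries the genes, more weight in the testis mean. In liver 1 was called, where 6.66% of all tested genes were. The count was 2 with a pseudocount of 0.1 (3516 of all 50365 genes) and 3 without testis replicate 1 and kidney replicate 1 (3457 of 49920). With 1 library left out it was 0 to 3. The lowest was without liver replicate 1 (2656 of 50291 genes) and the highest without testis replicate 1 (3424 of 50134). In ovary 0 were called, 5 without testis replicate 1 and kidney replicate 1, and 0 to 7 with 1 library left out. For TRINITY_DN49458_c0_g1 in testis the log2 difference turned to -0.032 without testis replicate 1, with or without kidney replicate 1, and was -0.032 to 3.83 over single libraries. Beyond the fewer libraries, the causes were not tested.

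Deviations from tissue means had a median correlation of 0.013 over 126 pairs of libraries with the same replicate number, 10 of them over 0.1. Over 252 pairs with different numbers the median was -0.007, with 8 over 0.1. Of 29 libraries, 18 correlated best with a library of their own number. No chance level was set for this count, and deviations within a tissue are tied to each other. The count therefore does not show the design. The numbers were not taken as pairing. With a replicate block 158, 4, 49, 1 and 0 genes were called in kidney, the F test, testis, liver and ovary. Over all 50365 tested genes the same settings called 7351, 34409, 10820, 3358 and 7496.

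Values near 0 are limited by an unknown depth.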
